A study of Caenorhabditis elegans with 2 samples.

Results

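The mid-numbered microRNAs (miRNAs) of Caenorhabditis elegans were read at low levels in these data, as were many other loci. They are the mature miRNA loci whose number after miR- is at least 300 and under 1000, without miR-356, miR-786, miR-793, miR-794, miR-795 and miR-797. Of 375 mature miRNA loci in the deposited table, 32 were members. They came from 20 hairpin names, from mir-353 to mir-800, 12 of the loci in the 300s and 20 numbered over 700. The rule rests on the number in the name alone and uses no measured value, but it was chosen with earlier results of these data known.

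The libraries were made from whole worms of the wild-type strain N2, with the age given as Day 1 in both groups. One group had received enoxacin and the other its vehicle. Enoxacin is a fluoroquinolone antibiotic that promotes miRNA processing in mammalian cells by binding TRBP, a partner of Dicer. The submitters describe 3 independent worm experiments, and it is not stated whether these were pooled into a library. Each group had 1 small RNA library, so there was no replicate error and no test between the groups. The comparison asks which miRNAs change in level with the compound.

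A miRNA is cut from a hairpin precursor, first by Drosha and then by Dicer, and 1 arm of the hairpin, 5p or 3p, is usually kept in an Argonaute protein. The kept strand represses messenger RNAs that pair with it, chiefly through its seed near the 5′ end. Numbers in miRNA names follow the order of registration, so they carry no shared function or family. In the worm, many miRNAs registered after the abundant ones are restricted to few cells, and the loss of single miRNAs often leaves development largely intact. miR-791, for example, is known from neurons that sense carbon dioxide, and its hairpin is among the members.

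The library totals used by the authors were 10698845 reads for vehicle and 8787665 for enoxacin. One read was worth 0.0935 RPM (read counts relative to the library total) in vehicle and 0.114 RPM in enoxacin. All miRNA loci together took 3.74% of the vehicle total and 3.78% of the enoxacin total. Each ratio below is the enoxacin level over the vehicle level with an exact 95% interval, which covers counting error only.

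Members were detected in both groups at low read numbers. Of the 32 loci, 27 (84.4%) were read at least once in either library, where the share over all 375 loci was 68.5%. In vehicle 23 members had a read and in enoxacin 24. The vehicle library was the deeper one, and at the enoxacin total 22.5 of its 23 detected members would be expected to keep a read. Loci numbered under 300 had a read in 163 of 185 cases (88.1%), and those numbered 1000 or above in 55 of 141 (39.0%). The difference between these groups of loci was not tested.

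**Figure D1:**
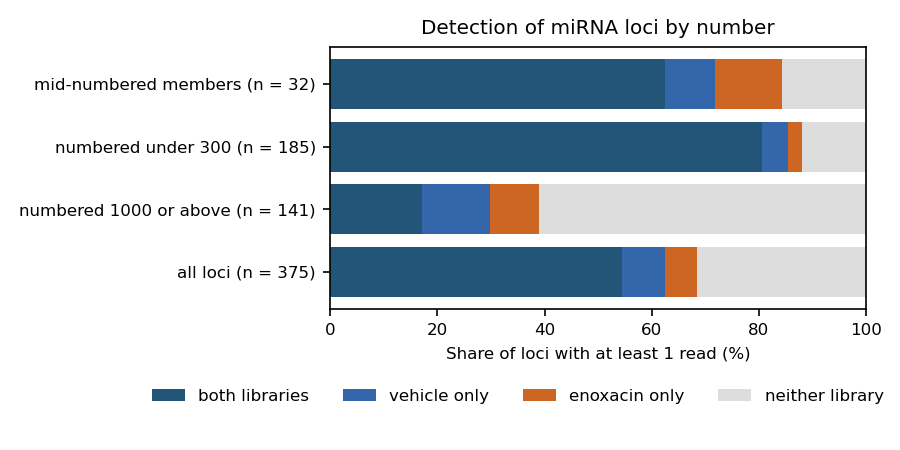
Share of miRNA loci (x axis, %) with at least 1 read in both libraries, in 1 of them or in neither, for the 32 mid-numbered members, for loci numbered under 300, for loci numbered 1000 or above and for all 375 loci. Of the members, 20 had a read in both libraries, 3 in vehicle only, 4 in enoxacin only and 5 in neither.

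The reads behind this detection were few. The median member had 5.5 reads over both libraries, beside 6 over all 375 loci, 55 for loci numbered under 300 and 0 for those numbered 1000 or above. Of the members, 11 reached 20 reads, the minimum used for comparison, 6 had 5 to 19 and 10 had 1 to 4. The most abundant locus, miR-798, had 74 reads and ranked 98 of 375. The 2 copies of miR-789, whose reads cannot be told apart, had 78 together. All members together had 266 reads in vehicle and 253 in enoxacin. Their share of all miRNA reads was 0.0664% for vehicle, with an exact binomial interval from 0.0587 to 0.0749%. For enoxacin it was 0.0761%, from 0.0670 to 0.0861%. The ratio of the summed levels was 1.16 (0.971 to 1.38), and its interval included 1.

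**Figure D2:**
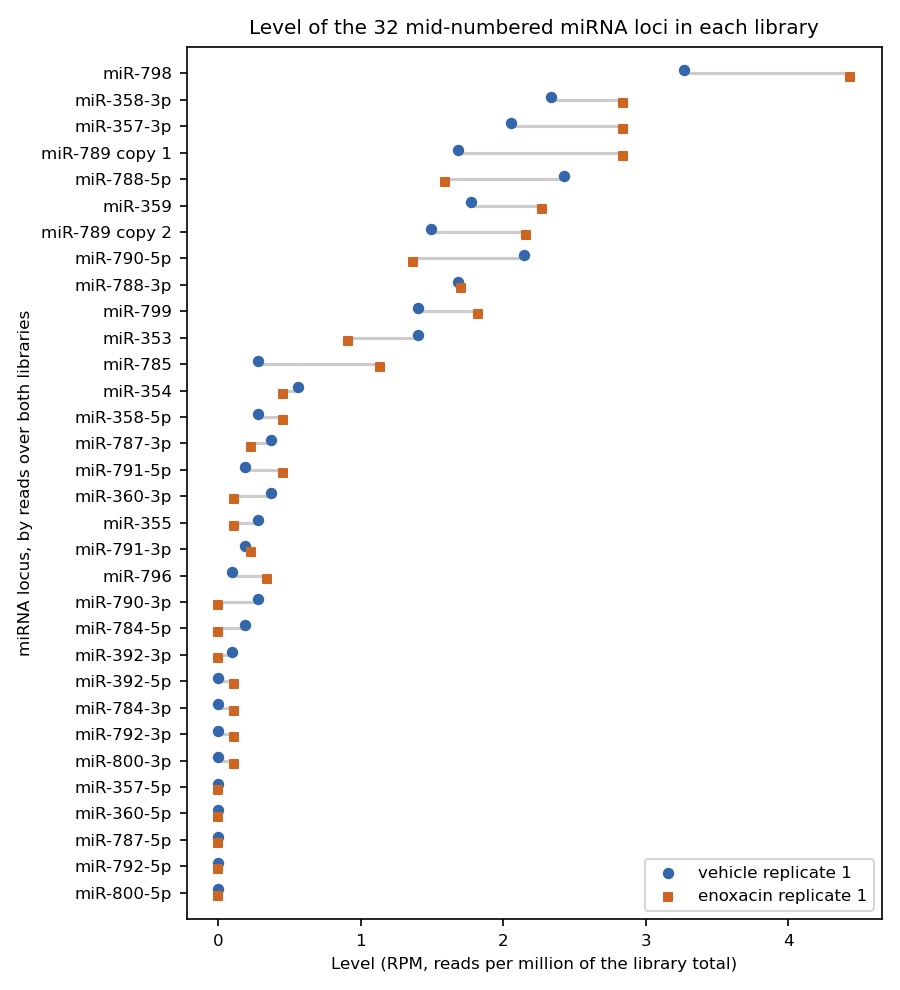
Level of each of the 32 member loci (x axis, RPM) in vehicle replicate 1 (circles) and enoxacin replicate 1 (squares), ordered by reads over both libraries. miR-798 had the highest level, 3.27 RPM in vehicle and 4.44 RPM in enoxacin, and 21 loci lay under 20 reads.

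None of the 11 compared members met the criterion for a difference, which was a ratio past 1.5-fold with a counting interval excluding 1. The count was 0 higher and 0 lower. Over all 152 loci with 20 reads or more, 13.2% were higher and 7.89% lower by the same criterion. The members sit at the shallow end of those 152, with a median of 39 reads against 167.5. In the range the members spanned, up to 74 reads, 10 of 55 loci (18.2%) passed. That range was set from the members' own read numbers after they were seen. Of the 55 loci, the 36 numbered under 300 held all 10, with 5 higher and 5 lower. The 11 members, 4 loci numbered 1000 or above and 4 of the left-out mid numbers had 0. Ratios were above 1 for 8 of the 11 and below 1 for 3. Under median-of-ratios and TMM scaling, where miR-788-3p turned, 7 were above 1 and 4 below. The median log2 ratio of the 11 was 0.36, a ratio of 1.28, beside 0.13 (1.09) over all 152. It was 0.38 for the 13 compared loci numbered 1000 or above and 0.39 for 5 of the left-out mid numbers. For the 120 compared loci numbered under 300 it was 0.09.

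The depth sets which ratios could have met the criterion. At 23 reads, the number for miR-353, the interval excluded 1 only from a ratio of 2.78 upward or 2.96-fold lower. At 74 reads, the number for miR-798, the limits were 1.69 upward and 1.71-fold lower. An observed ratio nearer 1 than these limits could not have met the criterion at that read number. How often a true difference of a given size would meet it was not computed for the members.

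**Figure D3:**
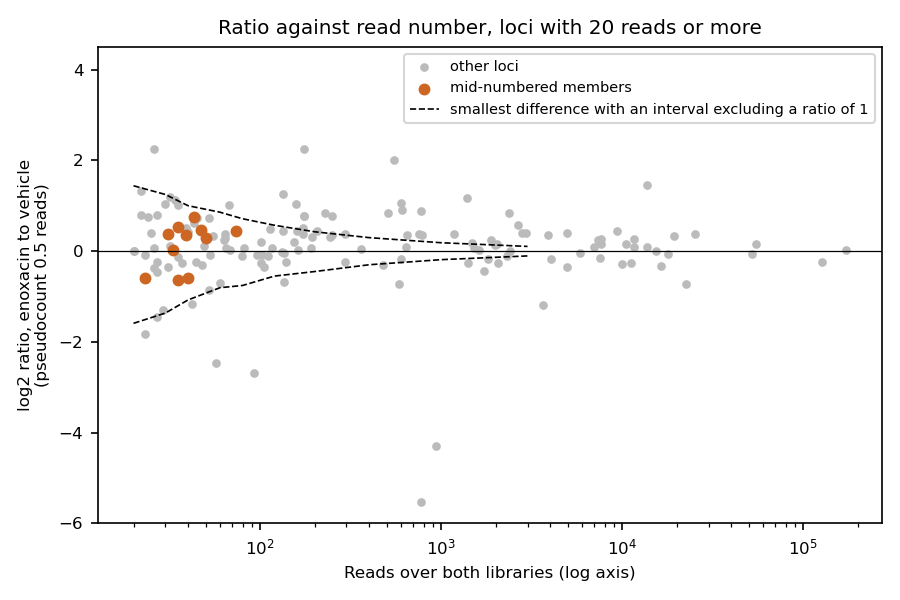
log2 ratio of enoxacin to vehicle with a pseudocount of 0.5 reads (y axis) against reads over both libraries (x axis, log scale) for the 152 compared loci, with the 11 members in orange. Dashed lines give the smallest difference whose counting interval excludes a ratio of 1. All 11 members lie between the lines.

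Among the loci with 1 named product, miR-798 was the most abundant (chromosome IV, 14277292 to 14277312, minus strand, ce10). It was read 35 times in vehicle and 39 times in enoxacin (ratio 1.36, 0.837 to 2.21). Its hairpin lies within an intron of ilcr-1, which codes for an interleukin-17 receptor-like protein and runs on the opposite strand in the WBcel235 annotation. miR-799 (chromosome X, 8600605 to 8600626, minus strand) was read 15 times in vehicle and 16 times in enoxacin (ratio 1.30, 0.601 to 2.82). No other annotated gene overlaps its hairpin. Both intervals included 1.

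miR-789 is listed at 2 hairpins on chromosome IV, which carry the same mature identifier. The copy from 16740675 to 16740697 (minus strand) had 18 reads in vehicle and 25 in enoxacin. Its ratio of 1.69 (0.886 to 3.29) was the 1 member ratio among the 11 to pass 1.5-fold upward, against 19.1% of the 152 loci at any interval. The copy from 17309285 to 17309307 (minus strand) had 16 and 19 reads, a ratio of 1.45 (0.704 to 3.01). Reads of a shared mature sequence cannot be told apart, so the separate values are uncertain. With both copies summed, miR-789 was read 34 times in vehicle and 44 times in enoxacin (ratio 1.58, 0.984 to 2.54), and this interval also included 1. In WBcel235 the hairpin named mir-789-1 overlaps the 5′ untranslated part of Y51H4A.24 on the same strand.

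The mir-357 and mir-358 hairpins lie close together on chromosome V, with 293 bases between their 3p products, and both sit in an intron of symk-1 on its opposite strand. symk-1 codes for symplekin, a factor of messenger RNA 3′ end formation. miR-357-3p (8580543 to 8580564, minus strand) was read 22 times in vehicle and 25 times in enoxacin (ratio 1.38, 0.749 to 2.57). miR-358-3p (8580858 to 8580879, minus strand) had 25 reads in each library, a ratio of 1.22 (0.671 to 2.21) because the enoxacin total was smaller. The neighbours thus had near-equal levels in each library. Summed over all 4 products, the pair had 50 and 54 reads, a ratio of 1.31 (0.878 to 1.97).

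mir-359 and mir-785 form a second neighbouring pair, on the plus strand of chromosome X with 352 bases between their mature products. miR-359 (3004342 to 3004363) was read 19 times in vehicle and 20 times in enoxacin (ratio 1.28, 0.649 to 2.54). miR-785 (3004716 to 3004737) had 3 reads in vehicle and 10 in enoxacin, levels of 0.280 and 1.14 RPM. Its ratio of 4.06 (1.04 to 22.9) was the highest of any member read in both libraries. With 13 reads it lay under the minimum, and at 13 reads this is the smallest upward ratio whose interval excludes 1. Without a minimum it would be the 1 higher member of 27, with 0 lower, where 8.95% of all 257 loci with a read were higher and 5.06% lower. Its interval included 1 under median-of-ratios scaling (0.944 to 20.7) and TMM scaling (0.9505 to 20.9). The intervals of the 2 neighbours overlapped, and the difference between their ratios was not tested.

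Ratios below 1 among the compared members belonged to miR-790-5p, miR-788-5p and miR-353. miR-790-5p (chromosome IV, 5566418 to 5566439, plus strand) was read 23 times in vehicle and 12 times in enoxacin (ratio 0.635, 0.288 to 1.33). miR-788-5p (chromosome X, 8485286 to 8485309, minus strand) had 26 and 14 reads, a ratio of 0.656 (0.316 to 1.30). These 2 passed 1.5-fold downward, as did 10.5% of the 152 loci at any interval. miR-788-5p did so only just, at a log2 ratio of -0.586. With a pseudocount of 1 it fell short, at -0.564. miR-353 (chromosome I, 4585907 to 4585927, plus strand) had 15 and 8 reads, a ratio of 0.649 (0.238 to 1.63). It fell just short of that fold, since the fold is read on the log2 ratio with a pseudocount of 0.5 reads, which was -0.58. Under median-of-ratios and TMM scaling miR-353 passed that fold, at -0.73 and -0.72. Its hairpin lies within an intron of rpl-24.1, a ribosomal protein gene, on the same strand. All 3 intervals included 1.

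**Figure D4:**
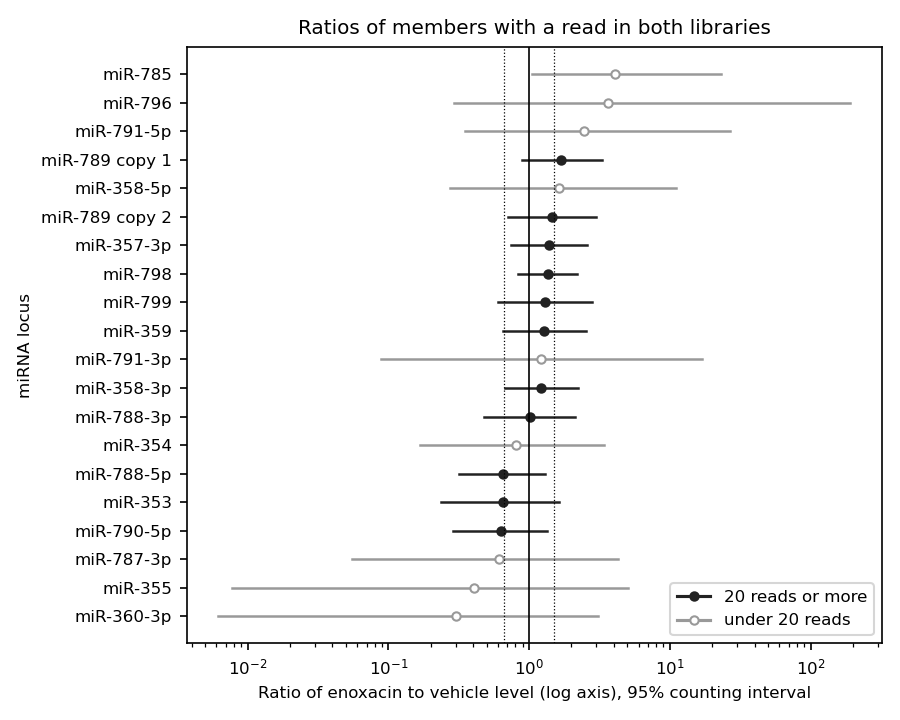
Ratio of enoxacin to vehicle level (x axis, log scale) with its exact 95% counting interval for the 20 members that had a read in both libraries. Filled points mark loci with 20 reads or more, open points loci under that minimum, and dotted lines a 1.5-fold difference. The interval of miR-785 starts at 1.04, and the other 19 include 1.

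The annotation places 1 other small RNA on the mir-790 hairpin. The piRNA 21ur-1430 is 21 bases long, lies on the same strand and falls wholly within the 22-base 5p product of mir-790, sharing its 3′ end and starting 1 base later (WBcel235). piRNAs, called 21U-RNAs in the worm, are germline small RNAs bound by the Argonaute PRG-1. Of 458 mature miRNA products in that annotation, 4 overlap a piRNA on the same strand. Reads from either RNA fall on the same positions, so the level of miR-790-5p is uncertain. Their part in its ratio was not tested. miR-228-5p, the nearest abundant miRNA on that strand, 4364 bases away from miR-790-5p, had 1309 and 1082 reads, a ratio of 1.01 (0.928 to 1.09).

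Both arms were listed for 11 hairpins of the set, and detection was counted for each arm. All 11 of the 3p arms were read at least once, and 6 of the 11 5p arms were. The 3p arm had more reads in 6 hairpins, the 5p arm in 4, and mir-392 was tied. This tally rests on few reads, since 7 of the 11 hairpins had under 20. In mir-792 and in mir-800 it rests on 1 read. Of the 4 hairpins with 20 reads or more, mir-357 gave 3p reads only, 22 in vehicle and 25 in enoxacin, which allows a 5p share of up to 15.4% and 13.7% (upper bounds of exact 95% intervals).

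In mir-358 the 5p arm took 3 of the vehicle reads, 10.7% of the hairpin (2.27 to 28.2%), and 4 of the enoxacin reads, 13.8% (3.89 to 31.7%). mir-790 leaned the other way, with 88.5% of its reads from the 5p arm in vehicle (69.8 to 97.6%) and all 12 reads in enoxacin (lower bound 73.5%). Among the 4 hairpins with 20 reads or more, mir-788 had the most even arms. Its 5p arm took 59.1% in vehicle (43.2 to 73.7%) and 48.3% in enoxacin (29.4 to 67.5%). miR-788-3p (chromosome X, 8485248 to 8485271, minus strand) had 18 and 15 reads, a ratio of 1.01 (0.476 to 2.13), beside the 0.656 of its 5p arm. In each of these hairpins the intervals of the arm shares in the 2 libraries overlapped.

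The remaining members had 10 reads or fewer over both libraries, so their ratios carry wide intervals. miR-354 was read 6 times in vehicle and 4 times in enoxacin (ratio 0.812, 0.168 to 3.42). Both of its annotated products lie wholly within an exon of rps-20, a ribosomal protein gene, on the same strand, so fragments of that messenger RNA would fall on the same positions. Their part in its level was not tested. miR-787-3p had 4 and 2 reads, and miR-360-3p 4 and 1. The mir-360 hairpin overlaps the non-coding RNA gene Y23B4A.5 on the same strand. miR-355, which has been linked to innate immunity in the worm, had 3 reads and 1 read. miR-358-5p had 3 and 4 reads and miR-796 had 1 and 3. For the neuronal hairpin mir-791, the 5p arm had 2 and 4 reads and the 3p arm 2 in each library. With both arms summed, mir-791 had a ratio of 1.83 (0.433 to 8.80). Its neighbour miR-230-3p, 5386 bases from miR-791-5p on the same strand, had 19 and 21 reads (1.35, 0.689 to 2.65).

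Detection in 1 library only concerned 7 members (21.9%), against 14.1% of all loci, and never more than 3 reads. The share over all loci counts 118 with no read at all. Of the 141 loci numbered 1000 or above, 18 were read in vehicle only and 13 in enoxacin only. Of the 185 numbered under 300, these counts were 9 and 5. Among the members, miR-790-3p had 3 reads in vehicle, miR-784-5p had 2 and miR-392-3p had 1, each with 0 in enoxacin. miR-784-3p, miR-392-5p, miR-792-3p and miR-800-3p had 1 read in enoxacin and 0 in vehicle. A count of 0 leaves room for 3 counts, which is 0.280 RPM for vehicle and 0.341 RPM for enoxacin. None of these 7 members could therefore be called absent from the other group. In mir-784 and mir-392 the arms were read in opposite libraries, on 3 and 2 reads in all. miR-357-5p, miR-360-5p, miR-787-5p, miR-792-5p and miR-800-5p had no read in either library. All 5 are 5p arms whose 3p partner was read.

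By chromosome, 18 members lie on X, 6 on V, 5 on IV, 2 on I and 1 on II, and a read was found for 15, 4, 5, 2 and 1 of them. Their summed levels had ratios of 1.13 (0.838 to 1.52) on X, 1.34 (0.896 to 2.005) on V and 1.22 (0.906 to 1.64) on IV. On I the ratio was 0.696 (0.312 to 1.48), from 21 and 12 reads, and on II 0.406 (0.00773 to 5.05), from 3 reads and 1 read. All 5 intervals included 1. The 12 members in the 300s had 98 and 89 reads, a ratio of 1.11 (0.820 to 1.49), and the 20 numbered over 700 had 168 and 164, a ratio of 1.19 (0.953 to 1.48). Mature lengths ran from 20 to 25 nt with a median of 22. The 11 loci named 5p had 56 and 35 reads, a ratio of 0.761 (0.484 to 1.18), and the 11 named 3p had 79 and 73, a ratio of 1.13 (0.807 to 1.57). The 10 loci named without an arm were all read in both libraries, with 131 and 145 reads. Their summed ratio was 1.35 (1.06 to 1.72), under 1.5-fold, and its interval reached below 1 under median-of-ratios (0.955 to 1.55) and TMM scaling (0.961 to 1.56). It also did so without the 2 copies of miR-789 (ratio 1.27, 0.9498 to 1.69). In WBcel235, matched by hairpin name for all 20, 12 hairpin names overlap no other annotated gene.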

How the data were processed

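Small RNA was sequenced from whole N2 worms given enoxacin or vehicle, 1 library per group. Per the labels' protocols, small RNA was enriched from 10 µg of total RNA per group for SOLiD library preparation. The submitters' processing notes name Bowtie2, bedtools and the genome build ce10; the sources used here do not give the treatment of strand or of reads with several matches. Raw read counts per mature miRNA locus were deposited by the authors. The deposited RPM values divide each count by 1 fixed total per library, recovered here from both columns. The authors' deposited ratio and its log2 equalled the ratios computed here where both counts were above 0. The table's control column was taken as vehicle, the sample described as control worms.

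Ratios are counts over library totals with exact conditional binomial (Clopper-Pearson) 95% intervals. These, and the limit of 3 counts for a count of 0, cover counting error only, since reads are not separate molecules. Log2 ratios used a pseudocount of 0.5 reads, and loci with 20 reads or more over both libraries were compared. The criterion for higher or lower was a log2 ratio past 1.5-fold whose interval excluded 1. It was tried on simulated counts with counting error only, for loci with 20 reads or more. Variation between worm samples was not simulated, so that trial cannot speak to it. No p-value was computed. All members with a read are named, and neighbours within 10 kb on the same strand if they had 20 reads, apart from those under Other observations. Members, lists and settings were chosen with earlier results of these data known. Overlapping genes came from the Ensembl WBcel235 annotation by hairpin name only, with no coordinates, since the table's positions are ce10. No sequences are shown, and seed-mates were not sought. Other settings tried were the scaling (by median of ratios, by TMM with edgeR 4.0.16, by the miRNA table sum, by totals without the 3 most abundant loci), minimum reads, thresholds, a pseudocount of 1, and arms summed. The minimum of 10 reads was chosen after seeing the data. Python 3.11.15, numpy 2.4.6, pandas 2.3.3, scipy 1.17.1 and R 4.3.3 were used.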

Additional observations from a re-analysis of the deposited data

How the results depend on the processing

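No paired analysis was possible because each group had 1 library. The counts of 0 higher and 0 lower members held under the 4 other scalings and with arms summed. Both other fold thresholds and a pseudocount of 1 could not change these counts. Neither setting enters the counting interval, and the intervals of all 11 compared members included 1. Dropping the minimum, or lowering it to 10 reads, made 1 member higher (miR-785). A minimum of 100 reads left no member to compare. Requiring 5 reads for detection left 13 members in at least 1 library, 12 in vehicle and 12 in enoxacin. The summed ratio ranged from 1.05 under median-of-ratios scaling to 1.16 and its interval included 1 in each setting. Median-of-ratios and TMM scaling shifted all log2 ratios by -0.15 and -0.14. The median of the compared members then was 0.21 and 0.22, beside -0.02 and -0.01 over all compared loci. Among the single members with a read, only miR-788-3p changed sign under the 4 other scalings or the pseudocount of 1, to log2 ratios of -0.12 and -0.11 under median-of-ratios and TMM scaling against 0.03. These scalings move all members alike and by less than their counting intervals. Having 1 library per group leaves no replicate error, and 21 of 32 members had under 20 reads.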

Other observations

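miR-249-3p lies 1706 bases from miR-785 on the opposite strand of chromosome X and was chosen with its values in view. It was read once in vehicle and 8 times in enoxacin (ratio 9.74, 1.31 to 432). miR-249-5p had 0 reads in both libraries. Other neighbours outside the members with reads under that minimum were miR-1821 (ratio 0.487, 0.0464 to 2.97) and miR-228-3p (0.457, 0.0780 to 1.90). A further neighbour, miR-230-5p, had a ratio of 1.52 (0.328 to 7.67). No test was possible with 1 library per group.

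The mir-789-1 hairpin in WBcel235 has 2 annotated mature products, and both lie wholly in an exon of Y51H4A.24 on the same strand.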
